A study of Mus musculus with 8 samples.

Results

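The AP-1 transcription factors examined here were 8 genes picked by family name from the 56691 genes of the count table, namely the Fos family members *Fos*, *Fosb*, *Fosl1* and *Fosl2*, the Jun family members *Jun*, *Junb* and *Jund*, and the related stress factor *Atf3*. The set was chosen on the comparison of *Atm*-KO with *Atm*-WT cerebella with earlier results of that comparison known. The differences between genotypes in these 8 genes are therefore given as a description and without a p-value, and calls among them are only counted. All 8 genes were found in the table, and all 8 were among the 22423 genes retained by the filter on low counts. RNA was sequenced from the cerebellum of 4 *Atm*-WT mice (ATM +/+, labelled 2M, 7M, 13M and 32M) and 4 *Atm*-KO mice (ATM -/-, labelled 1M, 7F, 11M and 12M), with a library for each mouse. The animals were 6 months old by the account of the study, which names the line as B6;129S4-Atmtm1Bal/J, bred from heterozygous parents with *Atm*-WT littermates as controls. The labels name no treatment for any of the mice. The study's methods describe harvest after avertin anaesthesia and perfusion of chilled saline through the heart for 3 min.

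AP-1 is a dimer of basic leucine zipper proteins. Jun proteins pair with each other or with Fos proteins, whereas Fos proteins need a Jun partner to bind DNA, and ATF3 can pair with Jun proteins. *Fos*, *Fosb* and *Junb* are immediate early genes, transcribed within minutes of neuronal firing, growth factor or stress signals, and their mRNAs are short-lived. *Jund* is transcribed in most resting cells, and *Atf3* is known for its induction by cell stress and axonal injury.

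In the *Atm*-KO cerebella the mean level of every member was lower than in *Atm*-WT, with log2 fold changes from −1.28 for *Fosb* and −1.04 for *Fos* to −0.24 for *Jun* and *Jund* and −0.19 for *Fosl1*. Of all genes tested, 53.1% had a log2 fold change below 0. In 5 of the 8 members (*Fos*, *Fosb*, *Fosl2*, *Junb* and *Atf3*) the log2 fold change was below −0.5, a value reached by 4.73% of all genes tested, and in 2 of the 8 (*Fos* and *Fosl2*) when *Atm*-WT mouse 32M was left out. The genotypes overlapped in every member. A call required a Benjamini-Hochberg adjusted p under 0.05 from the quasi-likelihood test of edgeR and a log2 fold change beyond 0.5 in either direction. It was met by 0 of the 8 members and by 4 of all genes tested (0.0178%). DESeq2, at the same thresholds, called 994 of the 20724 genes it tested, with *Fosl2* among them. EdgeR without a filter on low counts called 435 of 36568 genes, with *Fos* and *Fosl2* among them. Without mouse 13M edgeR called 27 of 22901 genes and 0 members. Because the set was chosen on this contrast, nothing further is read from these counts. In bulk tissue, fewer cells of a type and less RNA per cell cannot be told apart.

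The libraries held from 65967130 to 88030300 counts. *Atm*, the targeted gene, had 71.5 ± 10.1 CPM (counts per 1000000 counts of a library, with the library total scaled by TMM factors; SD, n = 4) in *Atm*-WT against 45.4 ± 4.16 CPM in *Atm*-KO mice, with the highest *Atm*-KO value (51.1 CPM) below the lowest *Atm*-WT value (59.0 CPM). Counts for the gene were thus present in every library labelled ATM -/-, and the adjusted p did not pass the threshold (log2 fold change −0.66, BH-adjusted p = 0.0775, edgeR). The granule cell markers (8 genes) summed to between 4810 and 6420 CPM and the Purkinje cell markers (8 genes) to between 8190 and 10300 CPM over the 8 mice, with none at 0. Mouse 7F was the only mouse with the letter F in its label. Mouse 32M held the highest value of 21.1% and the lowest of 23.0% of all genes tested, and mouse 12M the highest of 18.6% and the lowest of 23.0%.

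The promoters of 3 members are shown because *Fos*, *Jun* and *Junb* are classical signal-responsive genes whose levels are compared across mice below. Each run gives the 130 bases before the start site of the Ensembl canonical transcript on GRCm39, read from 5′ to 3′ on the strand of the gene. Capitals mark matches to the motifs searched. These were the CRE (TGACGTCA), the site of the *Jun* promoter that AP-1 and ATF proteins bind (TGACATCA), the TRE (TGAGTCA), the CArG box bound by SRF, the CCAAT box (CCAAT) and the TATA box (TATAAA).
Fos, chr12:85520528-85520657, plus strand: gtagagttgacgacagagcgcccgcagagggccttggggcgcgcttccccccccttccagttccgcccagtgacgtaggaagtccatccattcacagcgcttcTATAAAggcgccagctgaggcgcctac
Jun, chr4:94940460-94940589, minus strand: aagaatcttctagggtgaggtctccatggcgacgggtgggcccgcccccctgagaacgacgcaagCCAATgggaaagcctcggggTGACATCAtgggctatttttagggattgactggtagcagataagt
Junb, chr8:85705348-85705477, minus strand: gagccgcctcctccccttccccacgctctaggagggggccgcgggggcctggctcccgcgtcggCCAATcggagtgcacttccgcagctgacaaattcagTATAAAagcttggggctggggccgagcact

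Motifs were searched on both strands in windows from 250 bases before to 50 bases after the start site. The *Jun* window held TGACATCA at −45 to −38 relative to the start, a motif found in 3.09% of 21757 protein-coding promoters. The *Jund* window held TGACGTCA further upstream, at −214 to −207, as did 2.45% of promoters. TATAAA began at −27 in *Fos* and at −30 in *Junb*, also occurred on the opposite strand in *Fosl1*, and was present in 13.2% of promoters. CCAAT was found in the windows of *Jun*, *Junb*, *Jund* and *Atf3* and in 39.9% of promoters. TGAGTCA (4.70% of promoters) and the CArG box (1.54%) had no match in the window of any member, and *Fosb* and *Fosl2* matched none of the motifs, which says only that these letters are not in these windows. A match is a description of letters in a window and not a measurement of binding.

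To order the members within the tissue, CPM were divided by the length of the union of exons of each gene. *Jund* had the highest level per length, at 43.8 ± 5.95 CPM per kilobase over the 8 mice (SD, both genotypes together). *Jun* followed with 15.6 ± 2.36, *Fos* with 6.80 ± 3.42 and *Junb* with 2.96 ± 1.28 CPM per kilobase. The lowest levels per length were those of *Fosl2* (1.73 ± 0.626), *Atf3* (0.502 ± 0.200), *Fosb* (0.353 ± 0.359) and *Fosl1* (0.288 ± 0.0738 CPM per kilobase). The summed level per length of these 8 members, which leaves out the other bZIP partners, was thus mostly *Jund* and *Jun*. A gene on the opposite strand overlaps 52.6% of the exonic bases of *Jund*, and whether reads were counted by strand is not known. *Jund* made up between 56.0% and 66.2% of the summed level per length in each mouse, and its level exceeded that of 97.8% of all genes tested.

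Neighbours in this order differed in how far their values lay apart. The range of *Jund* lay above that of *Jun*, and that of *Fosl2* above that of *Atf3*. The ranges of *Jun* and *Fos*, and of *Fos* and *Junb*, overlapped between mice, although within each of the 8 mice *Jun* was above *Fos* and *Fos* above *Junb*. *Junb* exceeded *Fosl2* in 7 of 8 mice, *Atf3* exceeded *Fosb* in 6 of 8 and *Fosb* exceeded *Fosl1* in 5 of 8, so the order of the last 3 members was not separated by their spread. With the longest transcript as length, *Fosb* (0.584 CPM per kilobase) stood above *Atf3* (0.578).

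**Figure D1:**
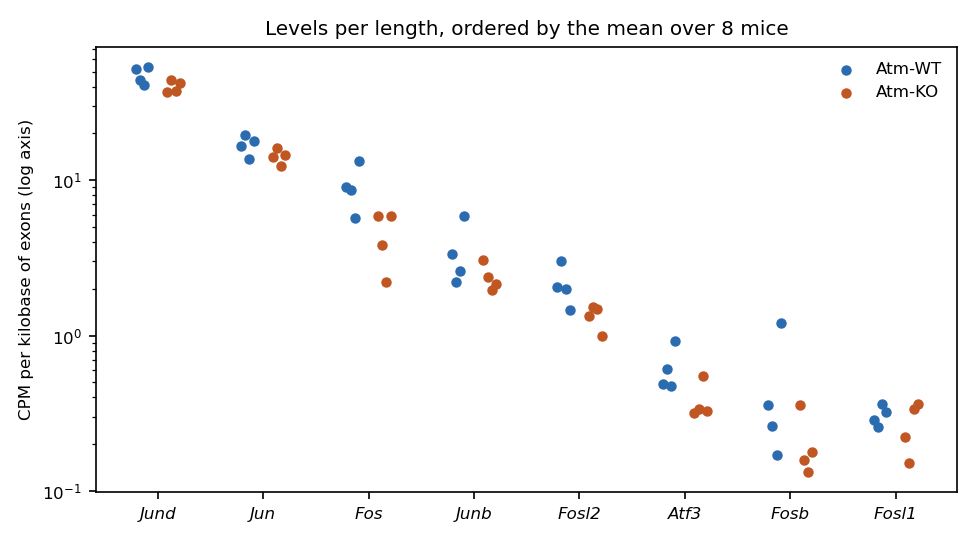
Level of each member in CPM per kilobase of exons (log axis), with a point for each *Atm*-WT (blue) and *Atm*-KO (orange) mouse and genes ordered by the mean over 8 mice. *Jund*, at 37.1 to 53.3 CPM per kilobase, lies above all other members, and *Atf3*, *Fosb* and *Fosl1* overlap at the bottom.

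Among the Fos family, *Fos* (chr12:85520658-85524047 on GRCm39, plus strand, 4 exons) had 21.3, 20.5, 13.4 and 31.1 CPM in *Atm*-WT mice 2M, 7M, 13M and 32M. In *Atm*-KO mice 1M, 7F, 11M and 12M it had 13.9, 9.06, 5.21 and 13.9 CPM. Only *Atm*-WT mouse 13M lay within the *Atm*-KO range, the other 3 *Atm*-WT mice lying above it. The log2 fold change was −1.04 (standard error 0.30), from 21.6 ± 7.26 to 10.5 ± 4.19 CPM, and lay between −1.20 and −0.80 with each mouse left out in turn.

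*Fosb* (chr7:19036621-19043976, minus strand), whose splice form ΔFosB accumulates under repeated stimulation and is not separated from the full-length form by counts per gene, had 2.22, 1.64, 1.06 and 7.58 CPM in the *Atm*-WT mice in the same order. The *Atm*-KO values were 2.24, 0.981, 0.825 and 1.11 CPM. Mouse 32M stood far above every other mouse, and the remaining 7 values of both genotypes were interleaved. The log2 fold change of −1.28 (standard error 0.55) was −0.34 without mouse 32M.

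*Fosl2* (chr5:32292707-32315186, plus strand), which encodes the Fos-related antigen FRA-2, showed a different order of mice. It had 21.4, 31.5, 20.7 and 15.1 CPM in *Atm*-WT mice 2M, 7M, 13M and 32M, and 13.9, 15.8, 15.5 and 10.3 CPM in *Atm*-KO mice 1M, 7F, 11M and 12M. Mouse 32M, the highest in *Fos* and *Fosb*, was here the lowest *Atm*-WT mouse and the only 1 within the *Atm*-KO range. The log2 fold change was −0.68 (standard error 0.20) with all mice and −0.82 without mouse 32M. *Fosl1* (chr19:5497575-5505974, plus strand), encoding FRA-1, was the least abundant member, with 24 to 63 counts per library, 0.623 ± 0.0911 CPM in *Atm*-WT against 0.547 ± 0.201 CPM in *Atm*-KO mice. Its log2 fold change of −0.19 (standard error 0.32) became 0.02 without mouse 7F, and 57.2% of its exonic bases overlap *Ccdc85b* on the opposite strand, so its values are uncertain because no source used here says whether reads were counted by strand.

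**Figure D2:**
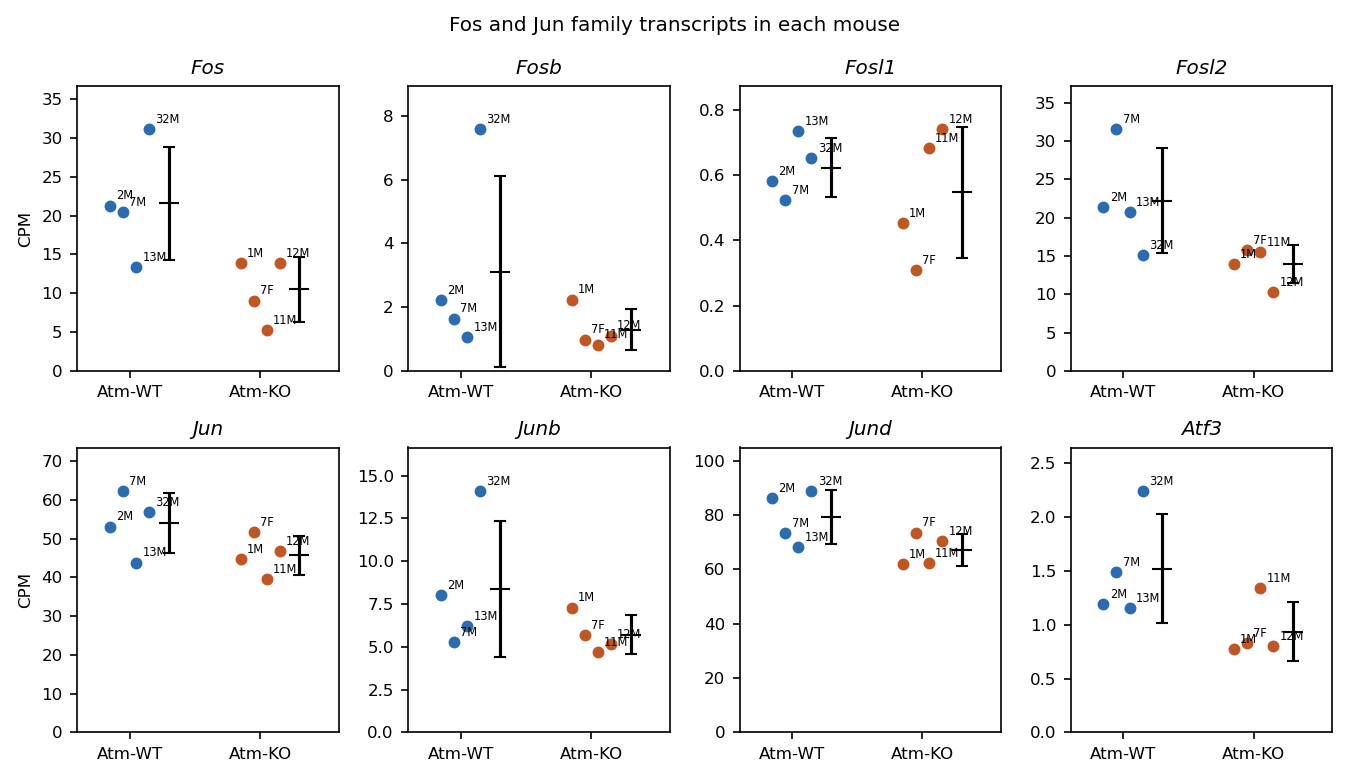
CPM of each member in every mouse (points, labelled with the mouse) by genotype, with the mean and SD of 4 mice at the right of each group. *Fosb* reaches 7.58 CPM in mouse 32M and at most 2.24 CPM in any other mouse, while the genotypes overlap in each panel.

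Among the Jun family, whose members here have a single exon, *Jun* (chr4:94937271-94940459, minus strand), the founding AP-1 subunit and a substrate of the JNK kinases, had 53.1, 62.3, 43.8 and 56.9 CPM in *Atm*-WT mice 2M, 7M, 13M and 32M. The *Atm*-KO mice 1M, 7F, 11M and 12M had 44.8, 51.6, 39.5 and 46.7 CPM. As for *Fos*, mouse 13M was the only *Atm*-WT mouse within the *Atm*-KO range. The log2 fold change of *Jun* was −0.24 (standard error 0.11).

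*Junb* (chr8:85701113-85705359, minus strand), which often restrains the activity of JUN, had 8.02, 5.28, 6.19 and 14.1 CPM in the *Atm*-WT mice against 7.29, 5.68, 4.69 and 5.15 CPM in the *Atm*-KO mice. Its highest value was again that of mouse 32M, and its log2 fold change of −0.56 (standard error 0.27) was −0.19 without that mouse. *Jund* (chr8:71151599-71153265, plus strand), the subunit present in resting cells, had 86.1, 73.4, 68.2 and 88.8 CPM in *Atm*-WT against 61.9, 73.5, 62.3 and 70.3 CPM in *Atm*-KO mice. The log2 fold change of *Jund* was −0.24 (standard error 0.10), with a leave-one-out range from −0.29 to −0.18. The lncRNA *Gm11175*, at 10.9 ± 2.29 CPM in *Atm*-WT against 9.97 ± 1.04 CPM in *Atm*-KO mice, overlaps 52.6% of the exonic bases of *Jund* on the opposite strand. *Junos* overlaps 16.6% of those of *Jun*, and *Prdx2* 7.27% of those of *Junb*, also on the opposite strand.

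*Atf3* (chr1:190902493-190950241, minus strand) was detected at 54 to 192 counts per library. It had 1.19, 1.49, 1.15 and 2.24 CPM in *Atm*-WT mice 2M, 7M, 13M and 32M, and 0.771, 0.826, 1.34 and 0.799 CPM in *Atm*-KO mice 1M, 7F, 11M and 12M. Mouse 11M, the lowest of all mice in *Fos*, *Fosb*, *Jun* and *Junb*, was the highest *Atm*-KO mouse in *Atf3* and the only 1 within the *Atm*-WT range. The log2 fold change was −0.70 (standard error 0.29), −0.45 without mouse 32M and −0.91 without mouse 11M.

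**Figure D3:**
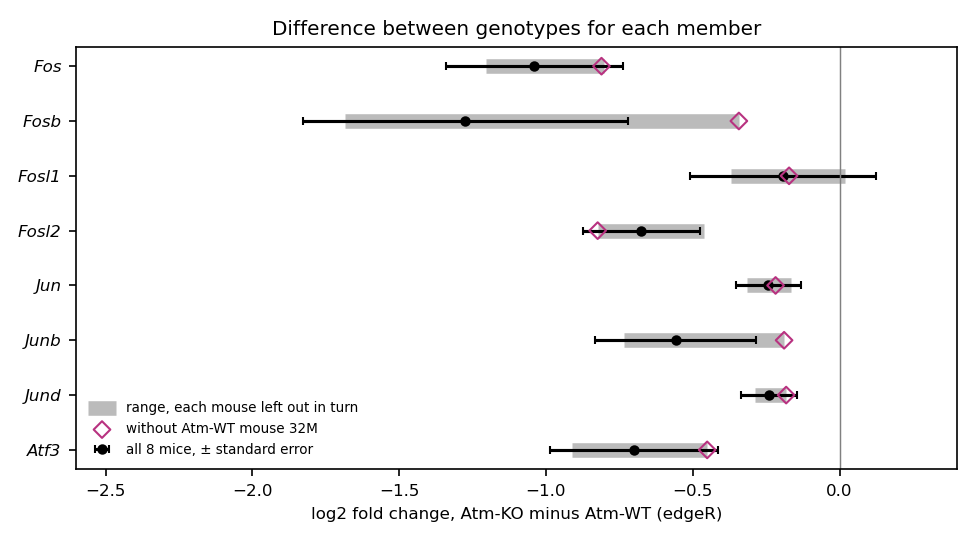
Log2 fold change of each member (*Atm*-KO minus *Atm*-WT, edgeR; black point ± standard error), the range when each mouse is left out in turn (grey bar) and the value without *Atm*-WT mouse 32M (diamond). Without that mouse *Fosb* moves from −1.28 to −0.34 and *Junb* from −0.56 to −0.19, whereas *Fosl2* moves from −0.68 to −0.82.

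The members also differed in how much they varied among mice of the same genotype. The SD of log2 CPM within genotypes was 0.96 for *Fosb*, 0.59 for *Fos* and 0.48 for *Junb*, values larger than those of 96.5%, 84.0% and 75.8% of all genes tested. In *Fosb* and *Junb* mouse 32M lay 1.69 and 0.85 above the *Atm*-WT mean of log2 CPM, and the SD was not computed without it. The SD was 0.19 for *Jun* and 0.16 for *Jund*, against a median of 0.23 over all genes tested and of 0.15 over the 15739 genes with a mean of at least 1 CPM. *Fosl1*, with the smallest difference between genotypes, had an SD of 0.41, larger than that of 70.3% of genes. Mouse 32M had the highest value in 5 of the 8 members (*Fos*, *Fosb*, *Junb*, *Jund* and *Atf3*) and in 21.1% of all genes tested, and mouse 11M the lowest in 4 (*Fos*, *Fosb*, *Jun* and *Junb*), against 8.10% of all genes tested that were lowest in mouse 11M. Of the 30 other immediate early genes, 11 were highest in mouse 32M and 14 lowest in mouse 11M.

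*Fos* was compared with each of the other 7 members over the 8 mice on the log2 CPM scale. Because the members were chosen on the genotype contrast, the genotype means were subtracted, and the two-sided exact permutation tests exchanged mice within a genotype only (576 orders), with Benjamini-Hochberg adjustment over the 7 relations. *Fosb* followed *Fos* most closely, with Spearman's rho of 0.93 (exact permutation p = 0.00347, adjusted 0.0243), while Pearson's r of 0.77 did not pass after adjustment (exact permutation p = 0.0226, adjusted 0.158). Without mice 13M and 11M, the mice farthest from the median of *Fos* after subtraction, r was 0.81, and without mouse 32M it was 0.76.

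For *Junb* r was 0.64 (exact permutation p = 0.0781, adjusted 0.273) and rho 0.74 (exact permutation p = 0.0399, adjusted 0.140), and neither passed after adjustment. The values of *Jun* (r 0.60, rho 0.33) and *Jund* (r 0.54, rho 0.43) rested on mice 13M and 11M, without which r was −0.55 and 0.02. *Fosl2* had an r of −0.50 and a rho of −0.52, *Fosl1* −0.15 and −0.07, and *Atf3* −0.10 and 0.12. Without mice 13M and 11M these 3 r were −0.80, 0.74 and 0.55, and without mouse 32M they were −0.29, −0.22 and −0.69, so *Fosl1* and *Atf3* had no stable sign. In *Jun*, *Jund*, *Fosl2*, *Fosl1* and *Atf3* the adjusted exact permutation p-values were 0.306 to 0.830 for r and 0.523 to 0.878 for rho.

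**Figure D4:**
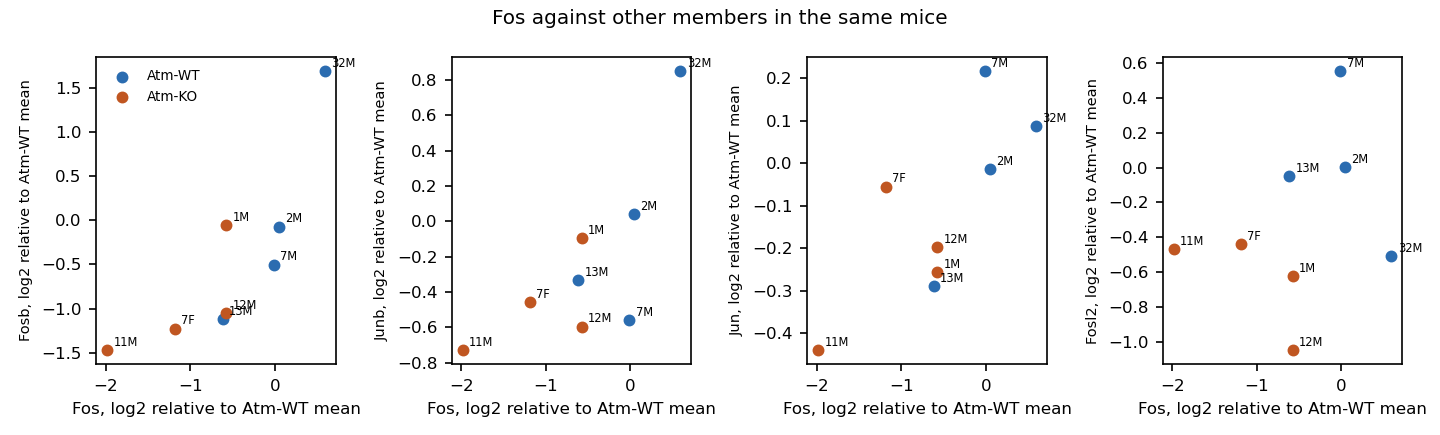
*Fosb*, *Junb*, *Jun* and *Fosl2* against *Fos* in the same mice, each axis giving log2 CPM after subtraction of the *Atm*-WT mean. *Fosb* follows *Fos* (rho 0.93 over 8 mice with genotype means subtracted), while in *Fosl2* mouse 32M, highest in *Fos*, lies at −0.51.

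The makeup of the summed level per length of the 8 members followed these differences. *Fos* took between 8.64% (mouse 13M) and 14.0% (mouse 32M) of the summed level of all 8 members in *Atm*-WT mice, and between 3.91% (mouse 11M) and 9.43% (mouse 1M) in *Atm*-KO mice. The ratio of the summed Fos family to the summed Jun family per length was 0.144 to 0.210 in *Atm*-WT against 0.0805 to 0.144 in *Atm*-KO mice, with mice 13M and 1M at the same rounded value of 0.144.

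Among 15676 genes outside the set with a mean of at least 1 CPM, *Nr4a1*, another immediate early factor, had the pattern most like that of *Fos* over the 8 mice (Pearson's r of log2 CPM 0.98, and 0.95 with the genotype means subtracted). It was followed by *Cbx1*, *Anp32b*, *Arrdc4* and *Cebpb*, with r from 0.97 to 0.93. With the genotype means subtracted, the order was *Neu1* (0.98), *Alkbh4* (0.96), *Nr4a1*, *Ier2* and *Drg2* (each 0.95), and *Cbx1*, *Anp32b*, *Arrdc4* and *Cebpb* had r from 0.93 to 0.85. The genes most like *Junb* were *Hpgd*, *Rheb*, *Ssu72*, *Mpst* and *Mgll*, with r from 0.99 to 0.97. These genes were ranked by r among many, the 8 mice being the same for all, so the values describe likeness in these mice and are given without a p.

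Other genes of the pathway were described by lists beside all genes tested, for which the median log2 fold change was −0.02 and of which 5.12% had every *Atm*-KO mouse below and 6.47% every *Atm*-KO mouse above every *Atm*-WT mouse. Among the genes of these lists, 0 met the requirements of a call, as above. The median log2 fold change was −0.62 over the 8 members and −0.38 over 30 other immediate early genes. Without mouse 32M these medians were −0.28 and −0.35, beside −0.01 over all genes. It was near that of all genes for the 15 tested partner and related bZIP factors (−0.11), the 20 kinases of the JNK, ERK and p38 pathways (−0.05), the 15 factors that act on *Fos* and *Jun* promoters (−0.06), the 14 genes of mRNA and protein turnover (−0.04) and the 14 tested AP-1 target genes (−0.10). Without mouse 32M these 5 medians were −0.10, −0.01, −0.12, −0.04 and 0.01. With all mice, log2 fold changes below −0.5 were found in 4 of the 15 partner factors, 0 of the 20 kinases, 0 of the 15 promoter factors, 1 of the 14 turnover genes, 3 of the 14 targets and 13 of the 30 other immediate early genes, beside 4.73% of all genes. Of the partner factors, 1 was lower without overlap between genotypes.

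The other immediate early genes had 28 of 30 fold changes below 0, and in 10 of the 30 the highest *Atm*-KO value lay below the lowest *Atm*-WT value, compared with 0 of the 8 members. *Klf2*, a flow-responsive factor of endothelial cells, had 9.21, 9.54, 7.76 and 16.5 CPM in *Atm*-WT against 4.65, 4.21, 3.73 and 3.61 CPM in *Atm*-KO mice (edgeR log2 fold change −1.41, SE 0.22, BH-adjusted p = 0.0775). *Ccn1*, a secreted matrix protein, had 1.74, 1.67, 2.54 and 6.24 CPM against 1.53, 1.33, 0.838 and 1.23 CPM (edgeR log2 fold change −1.31, SE 0.40, BH-adjusted p = 0.128). Without mouse 32M the log2 fold change of *Ccn1* was −0.69 and that of *Klf2* −1.13, and *Klf2* (BH-adjusted p = 0.0315, edgeR) and *Ccn2*, another secreted matrix protein (log2 fold change −1.07, BH-adjusted p = 0.0469, edgeR), then met the requirements of a call. *Klf10* and *Npas4* were the genes of the list with a log2 fold change above 0, at 0.15 and 0.46. The falls were smallest in *Ier5* (−0.03), *Homer1* (−0.05), *Arc* (−0.08) and *Gadd45b* (−0.11), all with overlapping genotypes. *Ier5* was at 0.06 without mouse 32M. The 7 genes of the Egr and Nr4a families, other immediate early transcription factors, had log2 fold changes from −0.85 (*Nr4a3*) to −0.34 (*Egr2*), all with overlapping genotypes, and from −1.09 to −0.22 for the same genes without mouse 32M.

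Among the kinases, *Mapk11*, the p38β kinase, had 12.9 ± 0.792 CPM in *Atm*-WT against 20.7 ± 2.10 CPM in *Atm*-KO mice without overlap (edgeR log2 fold change 0.68, SE 0.10, BH-adjusted p = 0.0513). *Mapk3*, the kinase ERK1, had 62.7 ± 7.47 and 50.7 ± 4.76 CPM (edgeR log2 fold change −0.31, SE 0.10, BH-adjusted p = 0.128). Of the AP-1 targets, *Penk*, the proenkephalin gene, had 50.9 ± 5.15 and 38.6 ± 5.32 CPM (edgeR log2 fold change −0.40, SE 0.11, BH-adjusted p = 0.106) and *Vegfa* 49.2 ± 4.48 and 57.3 ± 4.17 CPM (edgeR log2 fold change 0.22, SE 0.08, BH-adjusted p = 0.171). These 4 genes were named because their genotypes did not overlap, and none was called. Of the 20 kinases, 1 was higher and 1 lower without overlap, and of the 14 tested targets 1 was higher and 2 lower.

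**Figure D5:**
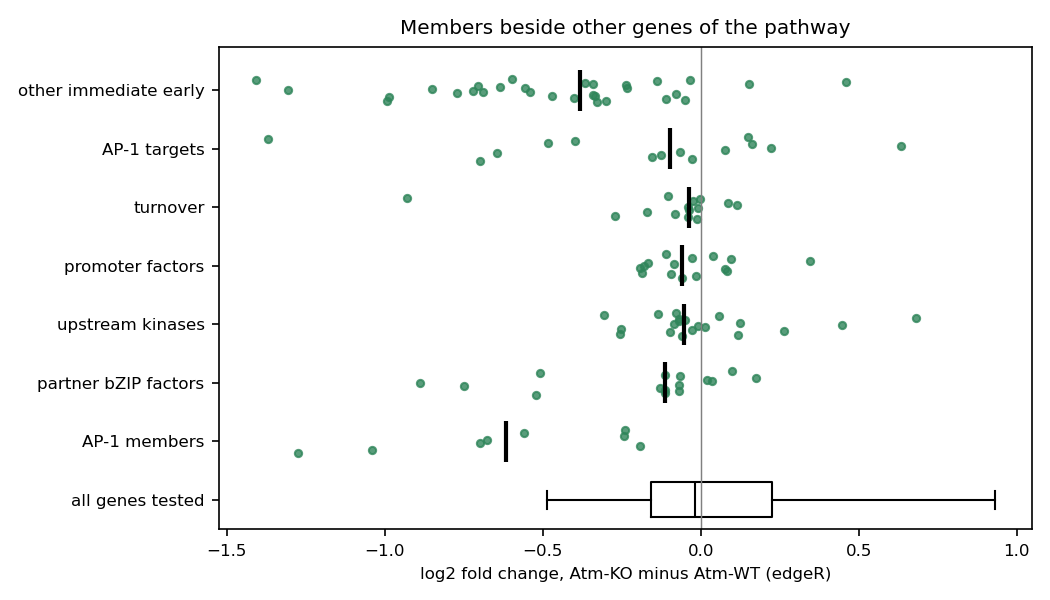
Log2 fold change (*Atm*-KO minus *Atm*-WT, edgeR) of each tested gene of the pathway lists (points, with the list median as a vertical bar) beside all genes tested (box from the lower to the upper quartile, whiskers from the 5th to the 95th percentile). The medians of the members (−0.62) and of the other immediate early genes (−0.38) lie left of those of the other lists, and are −0.28 and −0.35 without mouse 32M.

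Markers of several glial and vascular cell types also had fold changes mostly below 0, with 0 called. The 8 microglia markers summed to 143 to 195 CPM in *Atm*-WT against 110 to 145 CPM in *Atm*-KO mice, with the highest sum in mouse 32M. All 8 fold changes were below 0 (median log2 fold change −0.44, and −0.39 without mouse 32M). The 8 mural cell markers summed to 199 to 246 against 150 to 201 CPM, again with all 8 fold changes below 0 (median −0.36 with and without mouse 32M). The 8 oligodendrocyte markers summed to 3280 to 4310 against 1990 to 3390 CPM, with 7 of 8 below 0. Mouse 32M also had the highest mural and oligodendrocyte sums. The 1990 CPM were those of mouse 12M, the other *Atm*-KO mice having 3150 to 3390 CPM. The 8 choroid plexus markers summed to 1500 to 2910 CPM against 883 to 2110 CPM, with 8 of 8 below 0 (median −0.55, and −0.65 without mouse 32M). The 8 astrocyte and Bergmann glia markers summed to 2460 to 2650 against 2250 to 2450 CPM, also with 8 of 8 below 0. Without overlap between genotypes, 4 of 8 microglia, 3 of 8 mural, 2 of 8 oligodendrocyte and 2 of 8 astrocyte markers were lower. This held for 1 of 8 endothelial, 1 of 8 meningeal fibroblast and 0 of 8 choroid plexus markers, and for 5.12% of all genes tested. Of the endothelial markers 4 of 8 (summed 245 to 280 against 211 to 274 CPM) and of the meningeal fibroblast markers 5 of 8 (146 to 178 against 124 to 165 CPM) had fold changes below 0. So had 7 of 8 Purkinje cell markers (median log2 fold change −0.09) and 2 of 8 granule cell markers (median 0.06). Without mouse 32M the granule cell median was −0.005, with 4 of 8 below 0. All 5 red blood cell markers had fold changes above 0 (median log2 fold change 0.61, and 0.35 without mouse 32M) and summed to 5.87 to 42.9 and 7.80 to 49.5 CPM. The 7 listed brainstem and deep nuclei markers summed to 133 to 165 and 59.8 to 171 CPM. The 59.8 CPM were those of mouse 12M, the other *Atm*-KO mice having 127 to 171 CPM. No marker was at 0 in all libraries, and the part of cell makeup in the levels of the AP-1 members was not tested.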

How the data were processed

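Cerebellar RNA of 4 *Atm*-WT and 4 *Atm*-KO mice was analysed from a table of raw counts per gene, which the authors deposited without normalization after FastQC, STAR alignment to GRCm39 and featureCounts. The strand, read pair and multi-mapping settings are not given in the sources used here, and low counts were mostly even numbers (67.3% to 73.3% of counts from 1 to 50), so a count may be a read rather than a fragment. Identifiers were matched without version to GENCODE vM39, which held 98.81% of them. Nothing in the labels pairs the mice. The edgeR p-values set the difference between genotypes against the spread between these mice. The permutation p-values concern the association of genes among mice within a genotype.

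Members, gene lists and named genes were chosen with earlier results of these data known. Genes kept by filterByExpr were normalized by TMM and tested with edgeR 4.0.16 (glmQLFit, glmQLFTest; R 4.3.3), with Benjamini-Hochberg adjustment over all of them and no covariate; calls required an adjusted p below 0.05 and a log2 fold change beyond 0.5 in either direction. The standard error of a log2 fold change was its absolute value divided by the square root of the quasi-likelihood F. The script was tested on simulated data. Log2 CPM used a prior count of 2. Outside the members, the rule named, per pathway list, up to 2 genes in each direction with the largest change among genes whose genotypes did not overlap and whose mean reached 1 CPM, and the 5 genes most like *Fos* and *Junb*. *Klf10*, *Npas4*, *Nr4a3*, *Egr2*, *Ccn2*, *Ier5*, *Homer1*, *Arc* and *Gadd45b* were named after their values were seen. A gene that met the rule is not reported here. Alternatives were DESeq2 1.42.0, limma 3.58.1 (voom), RLE factors, library size alone, other filters, halved counts, the longest transcript as gene length, a prior count of 0.5 and each mouse left out. Leaving out mice 32M and 7F together was chosen after seeing the data. Promoters were read from the GRCm39 genome.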

Additional observations from a re-analysis of the deposited data

Results flagged for a closer look

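A mouse far from the other 3 of its genotype, by Dixon's ratio of the gap to the range, was found in 3 of 70 groups of 4 mice. Chance gives such a mouse in about 1 in 20 groups. *Atf3* was high in *Atm*-KO mouse 11M, at 1.34 CPM against 0.771 to 0.826 CPM in the other *Atm*-KO mice. The granule cell markers summed to 6420 CPM in *Atm*-KO mouse 12M, against 5050 to 5130 CPM. The meningeal fibroblast markers summed to 178 CPM in *Atm*-WT mouse 7M, against 146 to 151 CPM.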

How the results depend on the processing

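Each of *Fos*, *Fosb*, *Fosl2*, *Jun*, *Junb*, *Jund* and *Atf3* was lower in *Atm*-KO under all 16 alternatives. *Fosl1* was so under 14, with a log2 fold change from −0.37 to 0.02 when each mouse was left out and of 0.023 without mice 32M and 7F. The number of members below −0.5 was 2 to 5 with each mouse left out (2 without 32M) and 2 without 32M and 7F. The number of members with every *Atm*-KO mouse below every *Atm*-WT mouse was 0 to 2 with each mouse left out (*Fos* and *Jun* without 13M, *Fosl2* without 32M, *Atf3* without 11M, where 8.34%, 6.98% and 7.13% of all genes did so) and 1 without 32M and 7F. DESeq2 called 1 member (*Fosl2*) and edgeR without a filter on low counts 2 (*Fos* and *Fosl2*), against 0 in the other 14. Over all genes, edgeR called 4 of 22423 tested, DESeq2 994 of 20724, edgeR without a filter 435 of 36568 and edgeR with at least 10 counts in every library 2 of 19461. It called 1 to 27 with each mouse left out (1 or 2 without 2M, 7M, 1M or 11M, 9 without 32M, 27 without 13M) and 8 without 32M and 7F. At an unadjusted p under 0.05 there were 4524. The cause of these changes was not tested. With the longest transcript as length, *Fosl2* had 2.58 and *Fosb* 0.584 CPM per kilobase, the latter then above *Atf3* (0.578). Values at the level of *Fosl1*, with at most 63 counts per library, are limited by depth. No paired analysis was possible because the labels pair no mice.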
